A study of Mus musculus with 11 samples.

Results

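The 10 genes of glutathione synthesis and of the NRF2 programme studied here were described across young and aged mouse pancreas, untreated or given caerulein: Gclc, Gclm, Slc7a11, Gsr, Srxn1, Txnrd1, Nqo1, Hmox1, Osgin1 and G6pdx. They were chosen by gene symbol from the 54532 genes of the count table, with their caerulein responses at both ages and the difference of those responses already known, so values in these comparisons are a description and no p-value is given for them. Of the 10 genes, 9 passed the filter on low counts and belong to the 14113 genes tested. Nqo1 did not pass.

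The study asked how age affects the start of pancreatitis. Bulk messenger RNA of whole pancreas was sequenced from C57BL/6JRj mice in 11 libraries. The groups were 3 young untreated mice, 2 aged untreated mice (numbered 2 and 3), 3 young mice given caerulein and 3 aged mice given caerulein. Young mice were 7 weeks old and aged mice 18 months old, and no group carried an engineered allele by the labels. Caerulein, an analogue of cholecystokinin that overstimulates the enzyme-secreting acinar cells, was injected into the peritoneum 4 times at 125 µg/kg, and these libraries are labelled 5H. The time of sampling is in doubt, since the design text counts an hour from the first injection, which does not match the label. Untreated mice are described as untreated, with no vehicle injection named.

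NRF2, encoded by Nfe2l2, is a transcription factor that is held at a low level by KEAP1, which marks it for destruction. Oxidants and electrophiles release it, and it then binds antioxidant response elements together with a small MAF protein, while BACH1 competes for the same sites. Its targets make glutathione, recycle glutathione and thioredoxin, supply NADPH and break down haem. In pancreatitis, acinar cells are known to lose glutathione early.

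The promoters of 4 genes are shown because they include genes that were higher and genes that were lower after caerulein under TMM scaling. Windows ran from 250 bases before to 50 bases after the annotated start in RefSeq (GRCm38.p6), and 7 of the 10 genes, with 9 windows, were found in that table. Gclc, Gsr and Hmox1 were not among them. Capitals mark the core antioxidant response element TGACNNNGC or the AP-1 site TGANTCA, searched on both strands. Looser forms of either element were not searched, so a window without capitals may still hold one.

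Srxn1, chr2:152105274-152105573, plus strand, with 2 AP-1 places and 1 core element: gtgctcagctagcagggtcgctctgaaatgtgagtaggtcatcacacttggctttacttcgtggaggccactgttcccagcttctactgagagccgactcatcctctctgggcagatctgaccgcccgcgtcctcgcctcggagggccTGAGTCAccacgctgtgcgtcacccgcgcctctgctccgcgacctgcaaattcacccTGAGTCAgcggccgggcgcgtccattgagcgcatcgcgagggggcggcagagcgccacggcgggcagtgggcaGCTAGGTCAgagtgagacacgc
Osgin1, chr8:119436897-119437196, plus strand, with 1 AP-1 place: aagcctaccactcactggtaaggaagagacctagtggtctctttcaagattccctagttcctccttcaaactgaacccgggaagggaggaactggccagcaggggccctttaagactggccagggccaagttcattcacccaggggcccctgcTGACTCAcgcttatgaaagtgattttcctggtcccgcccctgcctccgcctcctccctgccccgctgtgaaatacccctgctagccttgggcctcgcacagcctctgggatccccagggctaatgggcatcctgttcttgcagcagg
Gclm, chr3:122245307-122245606, plus strand, with 1 core element: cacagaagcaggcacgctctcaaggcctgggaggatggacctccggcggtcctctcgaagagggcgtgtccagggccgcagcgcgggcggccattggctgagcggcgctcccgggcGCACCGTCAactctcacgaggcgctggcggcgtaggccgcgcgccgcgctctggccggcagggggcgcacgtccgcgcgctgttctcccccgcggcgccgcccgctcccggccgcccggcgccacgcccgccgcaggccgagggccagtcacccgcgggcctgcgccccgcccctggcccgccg
G6pdx, chrX:74428831-74429130, minus strand, with 1 core element: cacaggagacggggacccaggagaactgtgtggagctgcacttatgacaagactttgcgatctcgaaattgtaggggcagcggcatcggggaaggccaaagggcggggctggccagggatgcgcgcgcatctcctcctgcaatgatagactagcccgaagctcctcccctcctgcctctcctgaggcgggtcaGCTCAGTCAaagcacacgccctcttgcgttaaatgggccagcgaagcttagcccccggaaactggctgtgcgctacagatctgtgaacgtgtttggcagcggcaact

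The core element was found for 4 of the 7 genes (Gclm, Srxn1, G6pdx and 1 of the windows of Txnrd1), and the AP-1 site for Srxn1 and Osgin1. Over all 27025 genes of the table, 14.0% had the core and 8.97% the AP-1 site in at least 1 window, and the shares of all 32851 windows were 12.4% and 7.81%. Letters of the core thus stand in windows of genes that were higher (Srxn1, Txnrd1) and of genes that were lower under TMM scaling (Gclm, G6pdx) after caerulein. In all 4 genes the core lies on the opposite strand of its window, and in Srxn1 it lies after the start. A match describes these letters alone.

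Total counts ranged from 14223190 to 26537091 per library. Markers of acinar cells made up 76.0% to 84.5% of the counts of untreated libraries and 59.8% to 64.5% of those of caerulein libraries, so the pancreas label was borne out by its defining genes. Young untreated mouse 2 stood apart from the other untreated libraries. Its summed macrophage and monocyte markers reached 501 CPM (counts scaled to a library total of 1e+06) against 36.8 to 58.9 CPM in the other 4, its adipocyte markers 458 CPM against 11.4 to 32.8 CPM, and its B and plasma cell markers 240 CPM. Values without it are given where it changed a call or moved a value most. In bulk tissue, fewer cells of a type and less RNA per cell cannot be told apart.

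Levels are given as CPM scaled by TMM (a scaling that assumes most genes do not change), and a gene was called at a Benjamini-Hochberg adjusted p below 0.05 in edgeR's quasi-likelihood test over all tested genes. In young mice, 7 of the 10 genes were higher and 2 (Gclm and G6pdx) were lower after caerulein, where 27.5% of all tested genes were called higher and 24.7% lower. In aged mice, 7 were higher and 1 (Gclm) was lower, where 27.0% of all tested genes were called higher and 21.2% lower. With library totals in place of TMM, 7 were higher and 0 lower at both ages. Over all tested genes, 37.7% were then called higher and 8.99% lower in young, and 38.6% and 7.61% in aged mice. The 7 called higher at both ages were Gclc, Slc7a11, Gsr, Srxn1, Txnrd1, Hmox1 and Osgin1. The median log2 change of the 9 tested genes was 1.95 in young and 2.44 in aged mice, beside -0.06 and 0.07 over all tested genes. These counts are a description, since the genes were chosen with them in view.

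**Figure D1:**
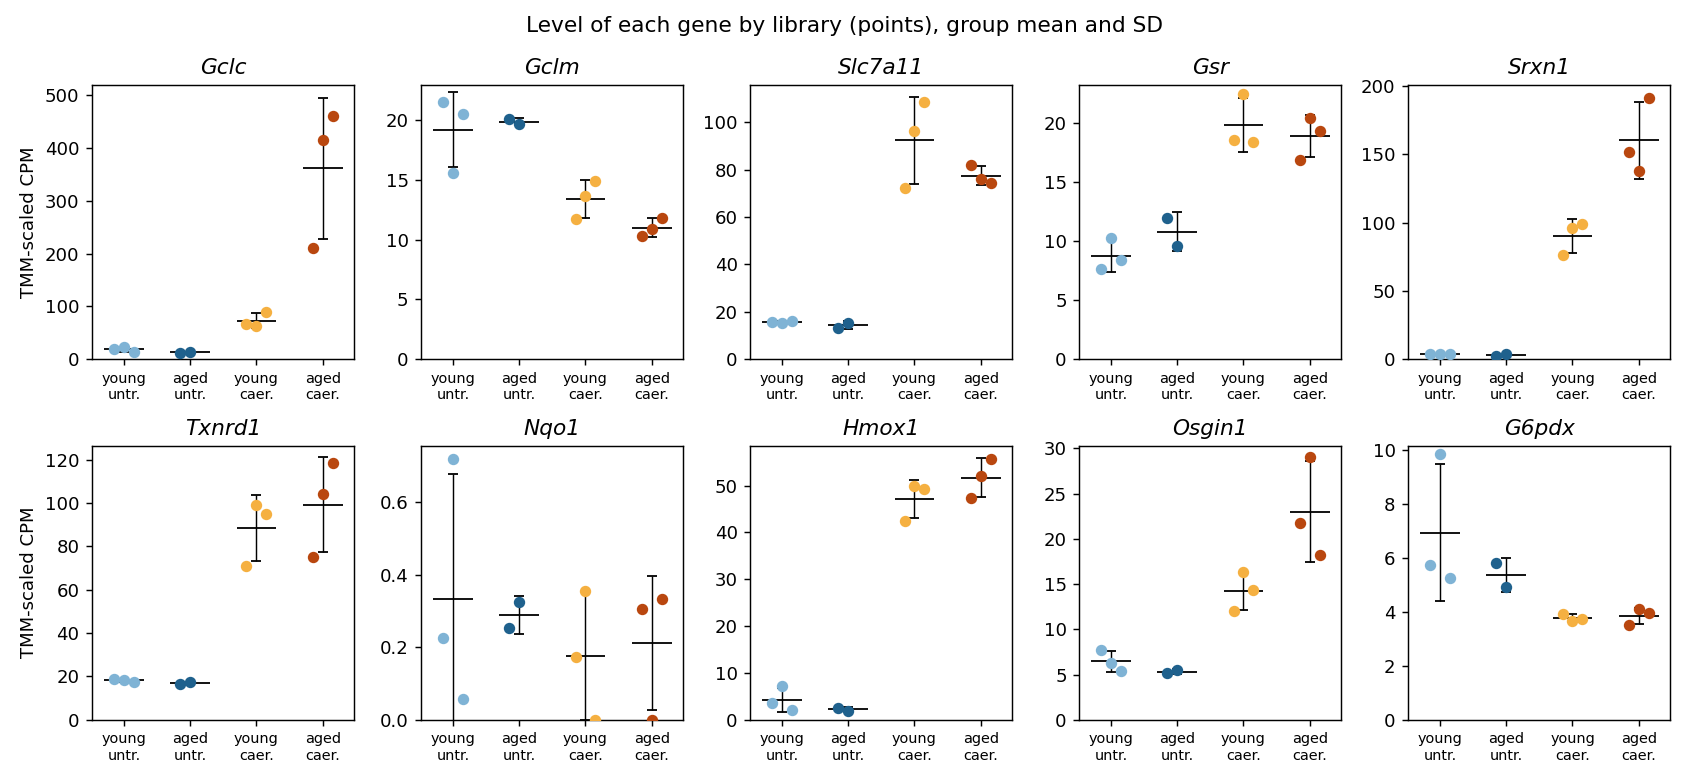
TMM-scaled CPM of each of the 10 genes by library (points), with the group mean (bar) and SD (whisker), for young and aged untreated (untr.) and caerulein (caer.) mice, on axes that start at 0 and differ between genes. Gclc lies between 11.2 and 23.7 CPM in untreated libraries and between 210 and 460 CPM in aged caerulein libraries, while Gclm and G6pdx lie lower after caerulein on this scaling and were called at neither age with library totals.

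Glutathione is made in sequence by glutamate-cysteine ligase, whose catalytic subunit is Gclc and whose modifier subunit is Gclm, and by glutathione synthetase. Gclc (chr9:77754535-77794485, mm10, plus strand, protein coding) stood at 18.5, 23.7 and 14.0 CPM in young untreated libraries and at 11.2 and 13.7 CPM in aged untreated libraries. After caerulein it reached 65.9, 63.4 and 88.7 CPM in young and 210, 416 and 460 CPM in aged libraries. No library of the aged caerulein group overlapped with any young caerulein library. Gclc thus changed on the log2 scale by 1.95 ± 0.29 (SE), or 3.87-fold, in young and 4.86 ± 0.40, or 29.1-fold, in aged mice. Within the aged caerulein group Gclc varied with a coefficient of variation of 36.9%, against 5.27% to 24.1% for the other 8 tested genes, and mouse 1 was the low one.

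Gclm (chr3:122245557-122270732, plus strand) moved the other way under TMM scaling. It stood at 21.5, 15.6 and 20.5 CPM in young untreated, 20.1 and 19.7 CPM in aged untreated, 11.7, 13.6 and 14.9 CPM in young caerulein and 10.3, 10.9 and 11.8 CPM in aged caerulein libraries. The treated and untreated libraries did not overlap at either age. The log2 change was -0.52 ± 0.14 in young and -0.86 ± 0.16 in aged mice. With library totals in place of TMM it was 0.02 and -0.23, and it was called at neither age. Under that scaling the median over all tested genes rose by 0.49 in young and 0.62 in aged mice. Exons of the predicted genes Gm17494 (opposite strand) and Gm6061 share 4.71% and 3.88% of the exonic bases of Gclm, and the strand setting of the counting is not given.

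The ratio of Gclc to Gclm within a library does not depend on how libraries are scaled. By FPKM (fragments scaled by gene length and library size, from the deposited table), it was 1.44, 2.54 and 1.14 in young untreated and 0.930 and 1.16 in aged untreated libraries. It was 9.39, 7.77 and 9.97 in young caerulein libraries and 34.2, 64.0 and 65.0 in aged caerulein libraries. The 2 untreated groups overlapped, and the caerulein groups lay apart from them and from each other.

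**Figure D2:**
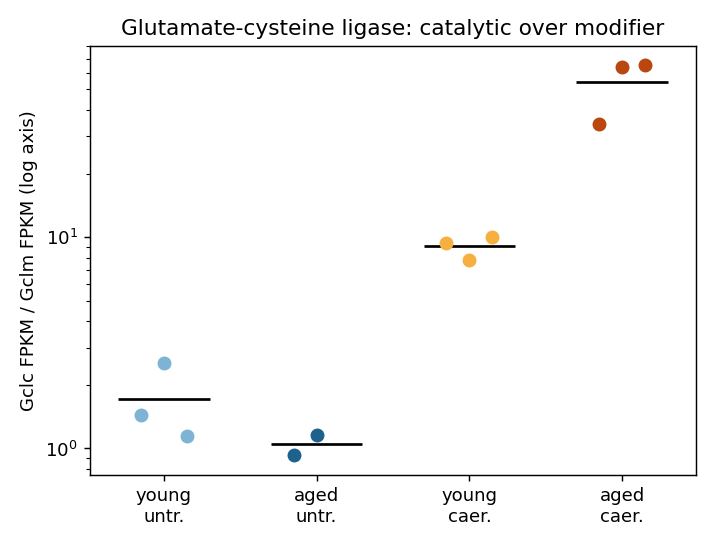
Ratio of Gclc FPKM to Gclm FPKM in each library (points, log axis), with the group mean as a bar. The ratio was 0.930 to 2.54 in untreated, 7.77 to 9.97 in young caerulein and 34.2 to 65.0 in aged caerulein libraries.

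Slc7a11 encodes the cystine/glutamate exchanger that brings in the cystine from which cysteine is made. Its level was 15.7, 15.2 and 16.1 CPM in young untreated and 13.0 and 15.4 CPM in aged untreated libraries. After caerulein it was 72.2, 96.1 and 109 CPM in young and 82.1, 76.3 and 74.2 CPM in aged libraries. The caerulein groups overlapped with each other and neither overlapped with the untreated ones. For Slc7a11 the log2 change was 2.56 ± 0.15 in young and 2.44 ± 0.18 in aged mice. In all, 5 predicted genes overlap its bounds in GENCODE M21, with 0 exonic bases shared.

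Among the recycling enzymes, Srxn1, sulfiredoxin, which repairs overoxidised peroxiredoxins, had the largest rise of the 10 genes at both ages. Srxn1 (chr2:152105516-152111376, plus strand) went from 3.60, 3.36 and 3.63 CPM to 76.2, 96.1 and 99.0 CPM in young mice. In aged mice it went from 2.44 and 3.58 CPM to 152, 138 and 191 CPM. The aged caerulein libraries all lay above the young ones. The log2 change was 4.68 ± 0.20 (25.6-fold) in young and 5.71 ± 0.25 (52.3-fold) in aged mice, which ranked within the top 1.56% and 1.03% of all tested genes by size.

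Txnrd1, thioredoxin reductase of the cytosol, stood at 18.9, 18.3 and 17.5 CPM in young untreated and 16.6 and 17.4 CPM in aged untreated libraries. Caerulein libraries held 71.1, 99.2 and 94.9 CPM in young and 75.3, 104 and 118 CPM in aged mice. The 2 caerulein groups overlapped. Its log2 change was 2.28 ± 0.18 and 2.55 ± 0.22. Gsr, glutathione reductase, which returns oxidised glutathione to its reduced form, went from 7.59 to 10.3 CPM in young untreated libraries to 18.4 to 22.4 CPM after caerulein. In aged mice Gsr went from 9.59 and 11.9 CPM to 16.9 to 20.4 CPM. Its log2 changes of 1.17 ± 0.15 and 0.81 ± 0.17 were the smallest of the 7 rises in aged mice and near that of Osgin1 in young mice.

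Hmox1, haem oxygenase, which breaks down haem, stood at 3.60, 7.11 and 2.01 CPM in young untreated and 2.61 and 1.84 CPM in aged untreated libraries. After caerulein it was 42.4, 49.9 and 49.2 CPM in young and 47.3, 52.0 and 55.6 CPM in aged libraries. The caerulein groups overlapped, and the highest untreated value was that of young mouse 2, the library with the high macrophage markers. The log2 change was 3.44 ± 0.33 in young and 4.56 ± 0.44 in aged mice. Without that library it was 4.01 and 4.51. Macrophages also express Hmox1. As CPM of library totals, their summed markers were 36.8, 501 and 48.6 CPM in young untreated libraries. They were 58.9 and 47.1 CPM in aged untreated libraries. After caerulein they were 65.1 to 127 CPM in young and 99.6 to 146 CPM in aged libraries. Of the 12 markers, 0 to 2 stood at 0 counts per library. After caerulein, of the 10 tested, 1 was higher and 3 lower in young and 3 were higher and 0 lower in aged mice. The young counts include young untreated mouse 2, whose summed macrophage markers lay above those of all other libraries. The part of macrophages in the level of Hmox1 was not tested.

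Osgin1, an oxidative stress-induced growth inhibitor, went from 7.70, 6.28 and 5.41 CPM to 12.1, 16.4 and 14.3 CPM in young mice. In aged mice it went from 5.13 and 5.52 CPM to 21.7, 29.1 and 18.2 CPM. The aged caerulein libraries lay above the young ones. Its log2 change was 1.14 ± 0.20 and 2.11 ± 0.24. Nqo1, a quinone reductase and a classical NRF2 target in other tissues, was scarcely detected, with 0 to 18 counts per library and 0 counts in 1 young and 1 aged caerulein library. A count of 0 allows up to 0.156 and 0.146 CPM there. Of its 23 counts in young untreated libraries, 18 came from mouse 2. With no filter its log2 change was -0.83 ± 0.97 in young and -0.41 ± 1.12 in aged mice, so no change was detectable at this depth.

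G6pdx, glucose-6-phosphate dehydrogenase, which feeds NADPH to both reductases, was 5.73, 9.83 and 5.24 CPM in young untreated and 5.80 and 4.93 CPM in aged untreated libraries. After caerulein it was 3.92, 3.68 and 3.74 CPM in young and 3.51, 4.09 and 3.94 CPM in aged libraries. Treated libraries lay below untreated ones at both ages. Its log2 change was -0.88 ± 0.23 in young mice, where it was called, and -0.48 ± 0.26 in aged mice, where it was not. Without young untreated mouse 2 these were -0.59 and -0.54, both called, and with library totals they were -0.46 and 0.14, neither called. Exons of Ikbkg on the opposite strand share 13.6% of its exonic bases.

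**Figure D3:**
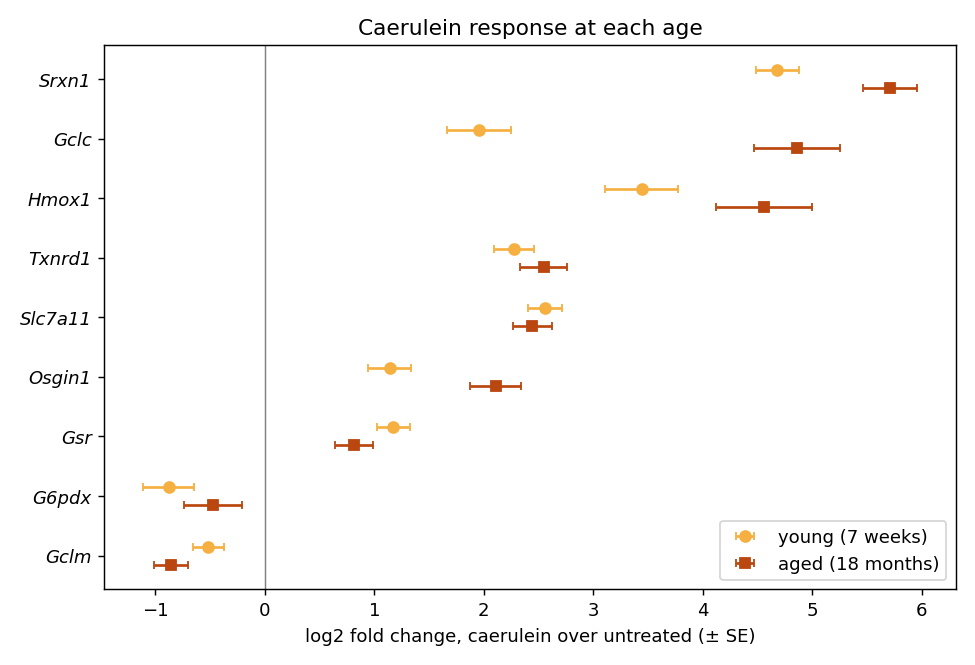
Log2 fold change (± SE) of caerulein over untreated for the 9 tested genes in young (circles) and aged (squares) mice. The gap between ages is widest for Gclc, at 1.95 in young and 4.86 in aged mice.

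Levels per length were compared by FPKM. In young untreated libraries the order ran from Gclc at 4.97 ± 1.22 (SD, n = 3) through Gsr, Gclm, Txnrd1, Osgin1, Hmox1 and G6pdx to Srxn1 at 1.25 ± 0.07, Slc7a11 at 1.13 ± 0.05 and Nqo1 at 0.213 ± 0.218, and neighbours from Gsr to G6pdx overlapped. In young caerulein libraries Srxn1 (31.3 ± 4.37) and Hmox1 (26.3 ± 2.35) led and overlapped, followed by Gclc at 18.8 ± 3.69 and Txnrd1 at 12.2 ± 2.10. In aged caerulein libraries Gclc led at 94.1 ± 34.9 and overlapped with Srxn1 at 55.5 ± 9.55, ahead of Hmox1 at 28.8 ± 2.40. Gclm, G6pdx and Nqo1 were the lowest 3 in both caerulein groups, at 1.71 ± 0.12, 1.22 ± 0.10 and 0.134 ± 0.116 in aged mice. Gclm ranked 3 of 10 in both untreated groups.

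The difference of the 2 caerulein responses, aged minus young, was called for 0 of the 9 tested genes, where 0.00709% of all tested genes were called higher and 0.00709% lower. It was 2.91 ± 0.45 on the log2 scale for Gclc, 1.12 ± 0.52 for Hmox1, 1.03 ± 0.28 for Srxn1 and 0.97 ± 0.30 for Osgin1. For Txnrd1, Slc7a11, Gsr, Gclm and G6pdx it ranged from -0.36 to 0.40. The call depended on settings. Gclc was called without young untreated mouse 2 (2.69) and without aged caerulein mouse 1 (3.18), 2 genes (Gclc and Srxn1) were called with DESeq2, and 4 (Hmox1 and Osgin1 besides) with no filter on low counts. Over all tested genes, 1.48% were then called higher and 0.811% lower without young untreated mouse 2, 0.0217% and 0.00724% without aged caerulein mouse 1, 1.27% and 0.709% with DESeq2, and 2.02% and 0.470% with no filter. The Hmox1 difference was 0.50 without young untreated mouse 2.

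Among caerulein mice, 2 of the 9 tested genes were higher in aged than in young and 0 were lower, where 2.46% of all tested genes were called higher and 1.27% lower. Gclc was higher by a log2 change of 2.32 ± 0.29 (4.98-fold) and Srxn1 by 0.82 ± 0.16 (1.77-fold). Osgin1, at 0.69 ± 0.19, was not called, although its groups did not overlap. It was called without young untreated mouse 2 (0.67), with DESeq2, with no filter and with only the groups compared. The authors' deposited log2 change was 0.67. For the other 6 the change ranged from -0.29 to 0.17. These libraries also enter the difference of the responses, so this is not separate evidence. The call of Srxn1 was lost with library totals (0.73) and on leaving out any 1 young caerulein mouse or aged caerulein mouse 1 or 3 (0.68 to 0.90).

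Before treatment, age made no called difference. Of the 9 tested genes 0 were higher and 0 lower in aged than in young untreated mice, where 0.0567% of all tested genes were called higher and 0.0354% lower. Gclc was -0.59 ± 0.33 (edgeR adjusted p = 0.578), with both aged libraries below the 3 young ones. Hmox1 was -0.99 ± 0.43 (edgeR adjusted p = 0.531) and -0.39 without young untreated mouse 2. The only unadjusted p below 0.05 was that of Hmox1, and with no filter it was called lower (-0.98). DESeq2 called 0 of the 9. Over all tested genes, 0.266% were called higher and 2.35% lower with no filter, and 0.258% and 0.147% without young untreated mouse 2.

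Around these genes stand 16 regulators and partners of NRF2. This and the other pathway lists were chosen with earlier results of these data known, so their shares are a description. After caerulein 9 (56.2%) were higher and 3 (18.8%) lower in young mice, beside 27.5% and 24.7% of all tested genes. In aged mice 10 (62.5%) were higher and 3 (18.8%) lower, beside 27.0% and 21.2%. Nfe2l2, NRF2 itself, rose from 14.2 ± 1.79 to 47.5 ± 2.00 CPM in young mice (n = 3 each). In aged mice it rose from 12.5 ± 0.55 (n = 2) to 66.6 ± 13.6 CPM (n = 3). For Nfe2l2 the log2 changes were 1.75 ± 0.16 and 2.42 ± 0.19. Its repressor Keap1 rose by 1.38 ± 0.11 and 1.37 ± 0.13. Of the small MAF partners, Maff rose by 3.67 ± 0.30 and 4.91 ± 0.40, Mafk by 2.68 ± 0.16 and 2.93 ± 0.19, and Mafg by 2.38 ± 0.18 and 2.89 ± 0.22. Bach1, the competing repressor, rose by 1.45 ± 0.12 and 1.80 ± 0.14. Sqstm1, p62, which binds KEAP1 and is itself an NRF2 target, went from 116 ± 21.1 to 1109 ± 75.2 CPM in young and from 103 ± 3.78 to 1513 ± 337 CPM in aged mice. Rbx1, Park7 and Btrc were lower at both ages, but with library totals 11 of the 16 were higher and 0 lower at both ages, and Rbx1 was 0.04 in aged mice. Library totals called 37.7% of all tested genes higher and 8.99% lower in young, and 38.6% and 7.61% in aged mice. In the difference of the responses and between ages, edgeR called 0 of the 16. Other settings called some: without young untreated mouse 2, Nfe2l2 (0.46) and Bach1 (0.42) were higher and Park7 (-0.48) lower in aged than in young caerulein mice, and DESeq2 called Nfe2l2 and Bach1. With no filter Maff (1.22) and Bach2 (2.77) were higher in the difference and lower between untreated ages. Over all tested genes, 2.02% were then called higher and 0.470% lower in the difference, and 0.266% and 2.35% between untreated ages. Bach2 ranged from 0.956 to 11.1 CPM in young untreated libraries. With the filter and without young untreated mouse 2, 0 of the 16 were called in either comparison.

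**Figure D4:**
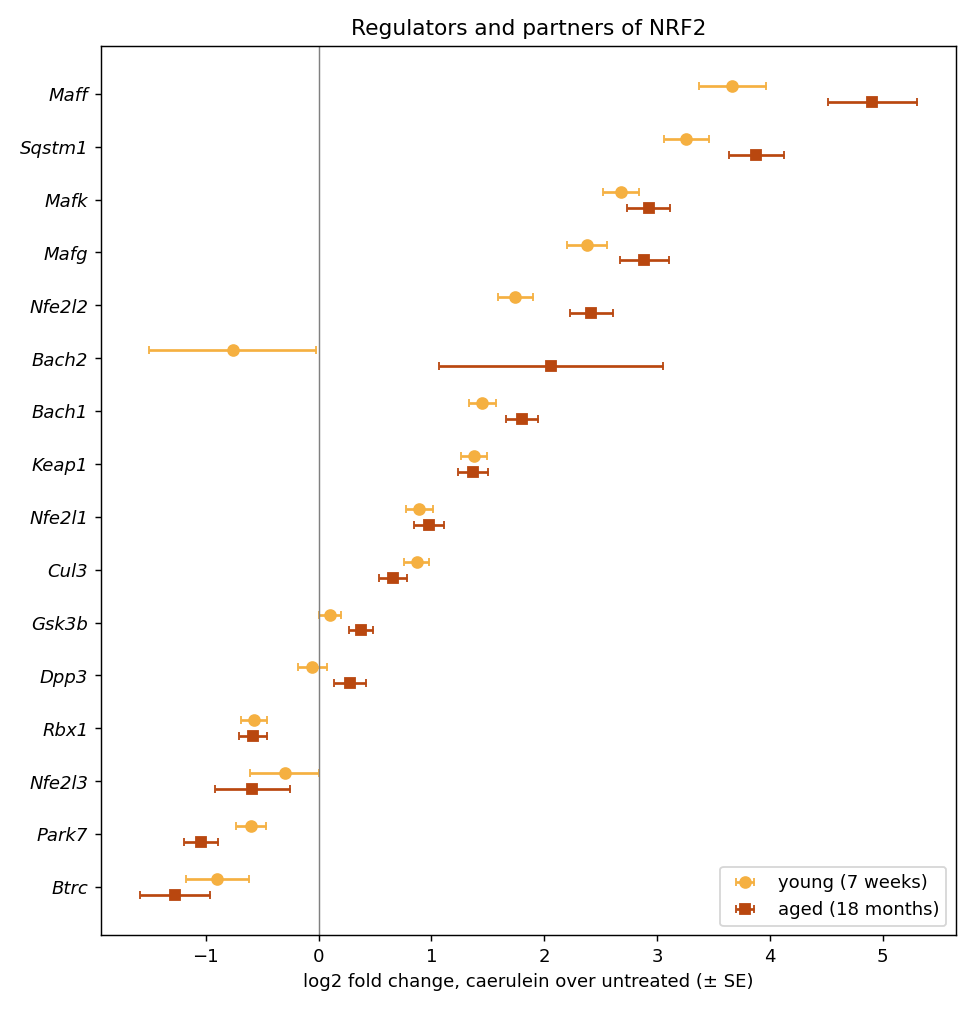
Log2 fold change (± SE) of caerulein over untreated for the 16 regulators and partners of NRF2 in young (circles) and aged (squares) mice. Maff changed by 3.67 and 4.91, Nfe2l2 by 1.75 and 2.42, and Btrc by -0.90 and -1.27.

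Of the other genes of cystine, cysteine and glutathione supply and breakdown, 9 of 22 (40.9%) rose and 2 (9.09%) fell in young mice. In aged mice 10 (45.5%) rose and 5 (22.7%) fell. These stand beside 27.5% and 24.7% of all tested genes in young, and 27.0% and 21.2% in aged mice. Without young untreated mouse 2, 9 rose and 5 fell in young mice, beside 30.8% and 26.8% of all tested genes. With library totals 11 rose and 1 fell at both ages. Shares of all tested genes were then 37.7% and 8.99% in young, and 38.6% and 7.61% in aged mice. Gss, glutathione synthetase, rose by 2.65 ± 0.15 and 2.77 ± 0.18, from 3.25 ± 0.59 to 20.3 ± 1.20 CPM in young mice. Mat2a, which makes S-adenosylmethionine, rose by 2.40 ± 0.18 and 3.19 ± 0.22, and Slc1a5, a glutamine carrier, by 1.38 ± 0.13 and 1.83 ± 0.16. Of the pair of glutathione-cleaving enzymes, Chac2 fell by 2.58 ± 0.21 and 2.67 ± 0.23 on the log2 scale. Chac1, named after its values were seen, rose by 4.15 ± 0.40 and 4.89 ± 0.49. Its level went from 45.1 ± 23.5 to 801 ± 82.5 CPM in young and from 50.5 ± 1.98 to 1501 ± 332 CPM in aged mice. Both steps of synthesis held a gene called higher (Gclc and Gss), while Gclm was lower under TMM scaling and not under library totals.

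Enzymes that use glutathione were called lower more often than higher under TMM scaling. Of 32 peroxidases, transferases and glutaredoxins, 4 (12.5%) rose and 10 (31.2%) fell in young mice, beside 27.5% and 24.7% of all tested genes. In aged mice 1 (3.12%) rose and 16 (50%) fell, beside 27.0% and 21.2%. The median log2 change was -0.39 in young and -0.71 in aged mice. Gsta3, a glutathione transferase, fell by 1.94 ± 0.30 and 2.14 ± 0.33, and Gstt1 by 1.34 ± 0.15 and 1.21 ± 0.17. With library totals the counts were 6 higher and 4 lower in young mice, with the median at 0.17, and 5 higher and 8 lower in aged mice, with the median at -0.10. Shares of all tested genes were then 37.7% and 8.99% in young, and 38.6% and 7.61% in aged mice. Without young untreated mouse 2 the counts were 2 higher and 16 lower in young mice, beside 30.8% and 26.8% of all tested genes. With the mouse number as a block they were 2 higher and 9 lower, beside 26.8% and 22.0%.

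In the thioredoxin list 6 of 19 (31.6%) rose and 8 (42.1%) fell in young mice, beside 27.5% and 24.7% of all tested genes. In aged mice 6 (31.6%) rose and 10 (52.6%) fell, beside 27.0% and 21.2%. Txnip, which inhibits thioredoxin, rose by 3.64 ± 0.20 and 4.37 ± 0.25, Sesn2, sestrin 2, by 3.71 ± 0.26 and 3.49 ± 0.31, and Txn1, thioredoxin itself, by 1.33 ± 0.13 and 1.22 ± 0.15. Sesn1 fell by 2.00 ± 0.25 and 2.19 ± 0.28. With library totals 8 rose and 5 fell in young, and 9 rose and 4 fell in aged mice. Shares of all tested genes were then 37.7% and 8.99% in young, and 38.6% and 7.61% in aged mice.

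Like G6pdx, the list of NADPH supply and the pentose phosphate pathway held few rises. Of 14 genes 0 rose and 5 (35.7%) fell in young mice, beside 27.5% and 24.7% of all tested genes. In aged mice 1 (7.14%) rose and 4 (28.6%) fell, beside 27.0% and 21.2%. Idh1, cytosolic isocitrate dehydrogenase, fell by 2.36 ± 0.28 and 2.12 ± 0.30, and Rpe by 1.17 ± 0.15 and 1.13 ± 0.17. With library totals 2 rose and 2 fell in young, and 3 rose and 2 fell in aged mice, where Rpe was -0.52 and not called. Shares of all tested genes were then 37.7% and 8.99% in young, and 38.6% and 7.61% in aged mice. Without young untreated mouse 2, 3 rose and 6 fell in young mice, and 2 rose and 6 fell in aged mice. All tested genes then stood at 30.8% higher and 26.8% lower in young, and 30.7% and 27.6% in aged mice. Of 20 haem, iron and detoxification targets, 3 (15%) rose and 7 (35%) fell in young, and 2 (10%) rose and 8 (40%) fell in aged mice. With library totals 5 of these targets rose and 2 fell in young, and 3 rose and 2 fell in aged mice. Akr1b8, an aldo-keto reductase, rose by 3.87 ± 0.29 and 4.19 ± 0.34, whereas Cbr1, a carbonyl reductase, fell by 1.29 ± 0.18 and 1.58 ± 0.20.

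Of 11 superoxide and peroxide enzymes, 2 (18.2%) rose and 6 (54.5%) fell in young mice, beside 27.5% and 24.7% of all tested genes. In aged mice 2 (18.2%) rose and 3 (27.3%) fell, beside 27.0% and 21.2%. The young median log2 change was -1.68, but 0.25 without young untreated mouse 2 (2 rose and 4 fell of 10) and -1.37 with library totals (2 rose and 3 fell). All tested genes in young mice stood at 30.8% higher and 26.8% lower without that mouse, and 37.7% and 8.99% with library totals. Cat, catalase, fell by 1.84 ± 0.15 and 1.72 ± 0.16, and Sod2, the mitochondrial superoxide dismutase, by 0.98 ± 0.11 and 1.25 ± 0.13 on the log2 scale. Slc7a11 is also a target of ATF4, the factor of amino acid shortage. Of 18 other amino acid and ATF4 targets, 17 (94.4%) rose in young and 16 (88.9%) in aged mice and 0 fell. This list too was chosen with earlier results of these data known, so the shares are a description. Their median log2 changes were 1.34 and 1.45. Atf3 rose by 7.67 ± 0.20 and 7.94 ± 0.24 and Trib3 by 4.53 ± 0.45 and 4.24 ± 0.54. With library totals 18 rose in young and 17 in aged mice, beside 37.7% and 38.6% of all tested genes.

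**Figure D5:**
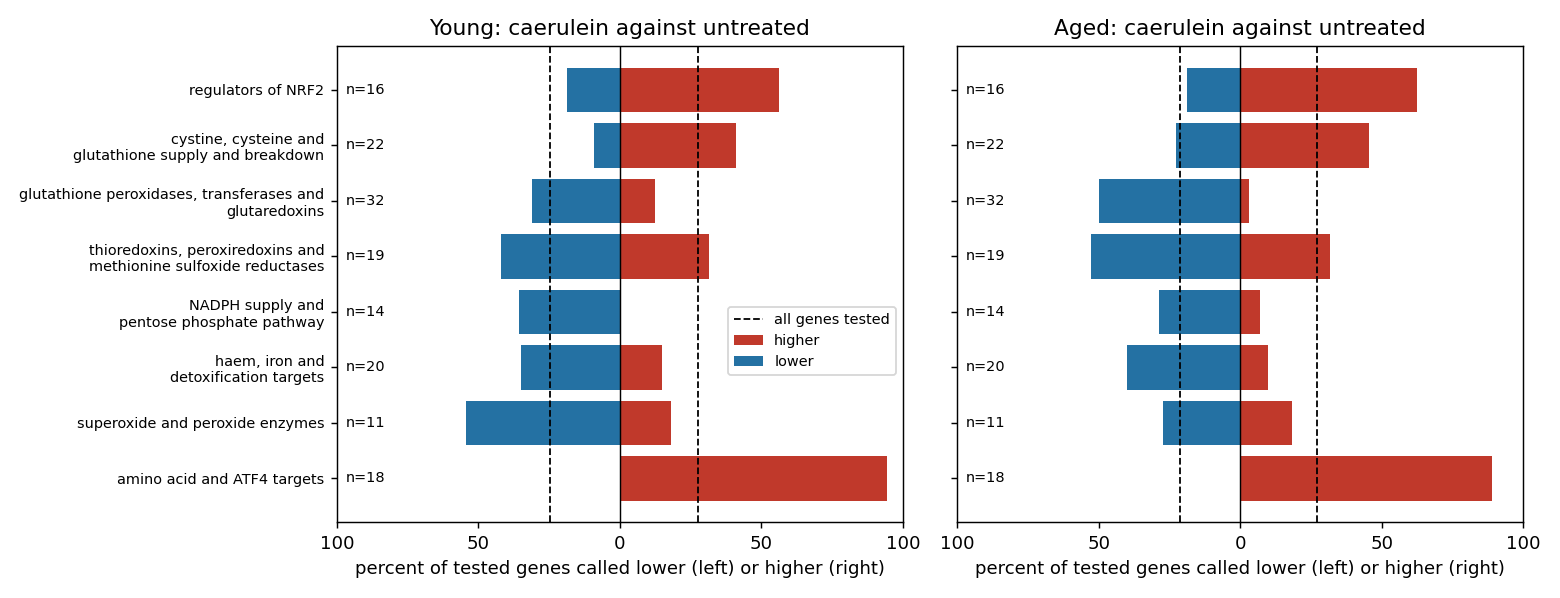
Percent of the tested genes of each pathway list called lower (left) or higher (right) after caerulein in young and aged mice, with the same shares over all tested genes as dashed lines (27.5% higher and 24.7% lower in young, 27.0% and 21.2% in aged mice). The amino acid and ATF4 list stands at 94.4% and 88.9% higher, and the glutathione peroxidase and transferase list at 12.5% and 3.12% higher. The lists were chosen with earlier results of these data known.

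Over the 8 lists, 50 of 152 genes (32.9%) rose and 41 (27%) fell in young mice, beside 27.5% and 24.7% of all tested genes. In aged mice 48 (31.6%) rose and 49 (32.2%) fell, beside 27.0% and 21.2%. With library totals 63 rose and 17 fell in young, and 61 rose and 20 fell in aged mice. Over all tested genes, 37.7% were then called higher and 8.99% lower in young, and 38.6% and 7.61% in aged mice. None of the 152 was called in the difference of the responses or between untreated ages, at 0 higher and 0 lower in each by edgeR. At an unadjusted p below 0.05 there were 31 and 18. The share of all tested genes at that unadjusted cut was not computed, so these counts are no result about the lists. DESeq2 called 2 each way in the difference and 1 each way between untreated ages. Its shares of all tested genes, higher and lower, were 1.27% and 0.709% in the difference and 0.255% and 0.191% between untreated ages. Between ages in caerulein mice 3 were higher and 2 lower, which is 1.97% and 1.32% and near the shares over all tested genes. Mat2a (0.85 ± 0.17, edgeR adjusted p = 0.0210), Hagh, a glyoxalase that releases glutathione (1.40 ± 0.19, edgeR adjusted p = 0.00339) and Slc7a1, an arginine carrier (1.23 ± 0.17, edgeR adjusted p = 0.00308) were higher in aged mice. Gpx8, a peroxidase of the endoplasmic reticulum, was lower in aged mice at 0.563 ± 0.154 against 3.37 ± 0.54 CPM (edgeR adjusted p = 0.00173), and Slc48a1, a haem carrier, was lower by 0.50 ± 0.11 on the log2 scale (edgeR adjusted p = 0.0391). With library totals Mat2a (0.73) and Slc48a1 (-0.61) were not called, nor was Slc48a1 with DESeq2 size factors. Without young untreated mouse 2, 17 were higher and 20 lower, where 7.85% of all tested genes were called higher and 6.31% lower.

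Outside the 10 genes, those whose level across the 11 libraries was most like the mean standardised log2 CPM of the 9 tested genes were Tnfrsf1a (Pearson r = 0.990), Rtn4 (0.989), Ier3 (0.988), Dedd2 (0.987) and Tgoln1 (0.987). The libraries form a treated and an untreated cluster, and 954 genes exceeded 0.95, so these values describe the treatment split.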

How the data were processed

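Poly(A) RNA of pancreas was sequenced as 150-base pairs, per the labels' protocols. Alignment with HISAT2 2.0.5 to mm10 and counting with featureCounts 1.5.0-p3 are named in the submitters' processing notes. No source used here gives the strand setting, annotation release or read filters. The authors deposited raw read counts per gene and FPKM values. The deposited FPKM imply library sizes of 0.696 to 1.33 times the count totals, close to the TMM factors. The authors' deposited comparison tables hold log2 fold changes with p-values per the file headers, and their log2 changes of the 9 tested genes lay within -0.043 to 0.041 of those computed here in 4 comparisons.

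From the counts, genes were kept by edgeR's filterByExpr (14113 of 54532), scaled by TMM (factors 0.696 to 1.29) and fitted in 1 model of 4 groups over 11 libraries (edgeR 4.0.16, R 4.3.3, quasi-likelihood F tests, Benjamini-Hochberg over all tested genes, call below 0.05). The SE is the log2 change over the square root of F. Fold changes of the 5 comparisons share libraries, and both age comparisons and the difference reuse those of the caerulein comparisons. The method was tested on simulated data. Between young untreated and young caerulein libraries the deviations of the 3 same-numbered pairs from their group means correlated at 0.106 to 0.149, all over 0.1, so blocked values stand beside the young results where they move a count by over 1.5 times. The labels do not tie these numbers to a batch or day. The alternatives were no filter, at least 1 CPM in at least 3 libraries, DESeq2 size factors, library totals, DESeq2 1.42.0, acinar markers left out before scaling, fits of only the groups compared, a block for mouse number, and leaving out each library. A count of 0 was read as up to 3 counts, which covers counting error only. The labels give 1 mouse per library, so p-values measure the spread between mice. Positions are mm10, exon overlaps come from GENCODE M21 and promoters from RefSeq.

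The 10 genes, the 8 pathway lists (165 symbols, 152 tested) and the marker lists were chosen with earlier results of these data known. Named were all 10 genes, any NRF2 regulator, of each other list up to 4 genes with the smallest p at each age and any gene called in the difference or between ages, and the 5 genes most alike in pattern. The direction of a fall is read with the scaling, since TMM and library totals differ.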

Additional observations from a re-analysis of the deposited data

How the results depend on the processing

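The 7 rises kept their direction and call at both ages in each alternative run. Library totals gave 0 members lower in young and 0 in aged mice, with Gclm reversed at 0.017 in young and G6pdx at 0.14 in aged mice, and 17 and 20 pathway genes lower. All-gene calls were then 5314 higher and 1269 lower in young and 5451 and 1074 in aged mice, against 3888 and 3488, and 3806 and 2998. Only the groups compared gave 2 members lower in aged mice, where 29.2% of all tested genes were called lower. In the difference, no filter gave 4 members higher and 6 pathway genes higher and 1 lower, and DESeq2 gave 2 members higher and 2 pathway genes each way. Between untreated ages, no filter gave 1 member lower and 1 pathway gene higher and 6 lower, and DESeq2 gave 1 each way. Between caerulein ages, library totals gave 1 member higher and 1 pathway gene lower, beside 0.701% higher and 0.822% lower of all tested genes. There pathway genes higher and lower were 8 and 3 with no filter, 5 and 4 at 1 CPM in 3 libraries, 11 and 5 with DESeq2, and 16 and 14 with only the groups compared. Shares of all tested genes were, in that order, 1.88% and 1.14%, 3.31% and 2.08%, 4.18% and 2.29%, and 7.81% and 5.75%. DESeq2 size factors gave 1 pathway gene lower there, beside 1.18% of all tested genes. Leaving out each library gave 7 members higher at both ages, 2 lower in young and 1 to 2 lower in aged mice, 0 to 1 higher in the difference and 1 to 3 higher between caerulein ages. Pathway genes then ranged from 44 to 50 higher and 34 to 50 lower in young, 35 to 53 and 39 to 61 in aged, 0 to 3 and 0 to 1 in the difference, 0 to 1 each way between untreated and 2 to 17 and 1 to 20 between caerulein ages. Other reversals were of uncalled values near 0. With library totals Slc7a11 in the difference was 0.009, Gclm between untreated ages -0.14 and G6pdx between caerulein ages -0.089. G6pdx there was also -0.0078 with acinar markers left out and -0.0014 with only the groups compared. On leaving out each library, Slc7a11 in the difference ranged from -0.26 to 0.018, Gclm between untreated ages from -0.090 to 0.14, Srxn1 there from -0.52 to 0.037, Gsr between caerulein ages from -0.13 to 0.028 and G6pdx there from -0.022 to 0.089. The cause was not tested.

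The mouse number as a replicate block gave 1 pathway gene lower between caerulein ages, where 0.787% of all tested genes were called lower. In other group pairs the deviations of same-numbered mice correlated at -0.207 to 0.163 and did not all exceed 0.1. With 2 or 3 mouse pairs in each, these correlations cannot show whether the number is more than a label there. With the block, 7 members were higher at both ages, 2 lower in young and 1 lower in aged mice. In young mice 48 pathway genes were then higher and 37 lower, beside 26.8% and 22.0% of all tested genes. Depth limits Nqo1, at 0 to 18 counts.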
